A study of Homo sapiens with 8 samples.

Results

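The Kruppel-like factors described here are 10 genes, KLF2, KLF3, KLF4, KLF5, KLF6, KLF7, KLF9, KLF10, KLF11 and KLF13, taken by their symbols from 55075 genes in the deposited count tables. The rule that picks them is a list of symbols with no threshold on expression, drawn up with earlier results of these data known. All 10 passed the filter on low counts that left 17471 genes for testing. RNA was sequenced from HCT116, a human colon cancer cell line grown attached in McCoy's 5A medium, and from HCT116 cells whose FBXW7 gene, encoding the substrate-binding subunit of an SCF ubiquitin ligase, was knocked out (KO). Wild-type (WT) and KO cells were each sampled at heat shock and at recovery, which makes 4 groups of 2 libraries. Every library came from heated cells: heat shock was 42 °C for 1 h, and recovery added 2 h at 37 °C. Unheated cells were not analysed here, so a change in recovery is a change since the end of the heat shock and not a return to, or a departure from, an unheated level. The labels do not say how the KO was made, which part of FBXW7 it removes or whether it is 1 clone, so a difference between KO and WT is a difference between these cell lines. How RNA was selected for each library is not given either. A difference in library preparation between groups, if there was one, cannot be told apart from the group difference.

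Kruppel-like factors are transcription factors that bind GC-rich and CACCC-containing DNA through zinc fingers at the carboxyl end. They differ in the rest of the protein: KLF3 recruits the corepressor CtBP, KLF9, KLF10, KLF11 and KLF13 recruit SIN3A and histone deacetylases, and KLF2, KLF4, KLF5, KLF6 and KLF7 carry regions that mostly activate transcription. In gut epithelium, KLF5 is known from the dividing cells of the crypt and KLF4 from the differentiated cells above them. Several family members are early-response genes with short-lived RNA and protein. KLF2, KLF5 and KLF13 proteins are known substrates of FBXW7, and the counts here measure RNA and not protein.

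Upstream sequence is shown for 4 members whose RNA behaved differently: KLF9 and KLF7 had the widest ranges over the 8 libraries, KLF13 the narrowest, and KLF2 differed mainly between cell lines. Each is the 250 bases before a transcription start in RefSeq (GRCh38.p14), written 5′ to 3′ on the gene's strand. Capitals mark matches, on either strand, to the motifs searched: the heat shock element pairs TTCNNGAA and GAANNTTC, the GC box GGGCGG, the CACCC box CCACACCC, the cAMP response element TGACGTCA, the CCAAT box CCAAT and the TATA box TATAAA. Overlapping matches were capitalised together.
KLF9, chr9:70414658-70414907, minus strand: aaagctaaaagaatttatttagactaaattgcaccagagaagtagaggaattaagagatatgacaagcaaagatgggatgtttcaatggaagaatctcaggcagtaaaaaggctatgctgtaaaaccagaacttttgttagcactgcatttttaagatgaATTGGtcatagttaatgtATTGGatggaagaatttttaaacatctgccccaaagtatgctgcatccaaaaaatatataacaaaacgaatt
KLF7, chr2:207167247-207167496, minus strand: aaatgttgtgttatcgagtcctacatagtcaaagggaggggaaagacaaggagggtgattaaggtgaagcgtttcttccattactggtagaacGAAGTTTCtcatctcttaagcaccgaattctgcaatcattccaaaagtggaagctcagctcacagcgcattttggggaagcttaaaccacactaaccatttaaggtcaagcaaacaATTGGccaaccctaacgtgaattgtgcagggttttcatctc
KLF2, chr19:16324576-16324825, plus strand: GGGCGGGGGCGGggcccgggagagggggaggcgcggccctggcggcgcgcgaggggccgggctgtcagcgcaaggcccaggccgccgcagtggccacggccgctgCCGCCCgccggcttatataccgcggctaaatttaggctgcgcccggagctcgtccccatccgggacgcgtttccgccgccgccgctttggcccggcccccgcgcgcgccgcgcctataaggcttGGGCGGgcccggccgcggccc
KLF13, chr15:31326585-31326834, plus strand: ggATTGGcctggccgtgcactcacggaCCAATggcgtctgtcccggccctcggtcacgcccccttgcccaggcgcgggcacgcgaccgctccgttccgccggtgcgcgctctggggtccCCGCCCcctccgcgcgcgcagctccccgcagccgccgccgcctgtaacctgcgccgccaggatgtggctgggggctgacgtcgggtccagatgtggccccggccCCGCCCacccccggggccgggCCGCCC

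The KLF9 window had 32.4% G and C, no GC box and 2 CCAAT boxes on the reverse strand, beginning 90 and 72 bases before the start. KLF7 has 4 listed windows. The one printed, at the outermost start, had 43.2% G and C, 1 GAANNTTC match 157 bases before the start and 1 CCAAT box 41 bases before it. It was chosen with the matches known, and the other KLF7 windows held no heat shock element match. One of them had 72% G and C and 4 GC boxes, another 58% and no match to any motif, and the last 41.6% and 1 CCAAT box, so the contents depend on the start taken. The KLF2 window had 80% G and C and 4 GC boxes, and the KLF13 window had 78.8% G and C, 3 GC boxes and 2 CCAAT boxes. Among 35116 windows of the same length (chromosome 8 left out), GGGCGG occurred in 42.6%, CCAAT in 32%, TATAAA in 10.7%, TTCNNGAA in 6.62%, GAANNTTC in 5.78%, CCACACCC in 2.97% and TGACGTCA in 1.65%. A match is a description of letters and not a measured binding site. KLF3 and KLF10 had no entry to print.

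FBXW7 itself was read at 33.5 and 31.4 CPM (read counts scaled to a common library size) in WT heat shock, 23.0 and 21.7 in WT recovery, 17.4 and 14.9 in KO heat shock and 14.0 and 13.8 in KO recovery. Both KO groups lay below both WT groups, with a log2 change of -1.01 ± 0.10 at heat shock (edgeR adjusted p = 1.88e-06) and -0.68 ± 0.11 at recovery (8.03e-05). Here and below ± after a log2 change is the standard error of the fit, all tests are two-sided, and each group has n = 2. Total counts ran from 15507896 to 34387618 per library. The epithelial markers EPCAM (247 to 339 CPM) and KRT8 (677 to 1200 CPM) were high in all libraries, and CDX2, an intestinal factor, was at 7.77 to 13.4 CPM. CDX1, also on the epithelial list, had at most 1 read in a library. CDH1, from that list too, was lower in KO at heat shock (-0.66, edgeR adjusted p = 6.98e-06) and at recovery (-1.30, 6.91e-09). Of 4 immune markers, CD3E had no read, and PTPRC and CD14 at most 4 reads in a library. The immune list summed to 24.1 to 29.9 CPM in WT heat shock, 17.5 to 19.0 in WT recovery, 16.1 to 17.9 in KO heat shock and 17.0 to 21.3 in KO recovery, nearly all of it CD68. The 5 fibroblast markers, of which COL1A2 had at most 2 reads, summed to 17.5 to 22.6, 17.2 to 20.7, 13.6 to 14.8 and 17.1 to 19.1 CPM in the same order. The part of these markers in the results below was not tested. In bulk RNA, fewer cells expressing a gene and less RNA per cell cannot be told apart.

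Levels were first compared between genes per length, as CPM per kilobase of exon. KLF10, named for its early induction by TGF-beta, had the highest mean in WT cells, 41.1 in heat shock and 38.3 in recovery. KLF2, a factor of T cell quiescence and of endothelium, followed at 25.0 and 27.2, and KLF5 at 24.3 and 18.8. In WT heat shock the libraries of KLF2 (26.5 and 23.5) and KLF5 (26.0 and 22.5) overlapped, so their order there was within the spread. KLF6, an early-response gene described as a tumour suppressor, had means of 14.9 and 15.4. In WT heat shock KLF3, KLF13 and KLF4 came next at 9.76, 7.34 and 6.71, and KLF7, KLF11 and KLF9 were lowest at 2.32, 1.49 and 1.17. In KO recovery KLF5 led at 35.8, and its libraries (37.9 and 33.8) overlapped those of KLF10 (34.5 and 30.8). In KO heat shock KLF5 and KLF10 also overlapped, at 27.0 and 22.9 against 23.9 and 23.3. The order of these 2 genes in KO cells was therefore within the spread of the libraries.

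**Figure D1:**
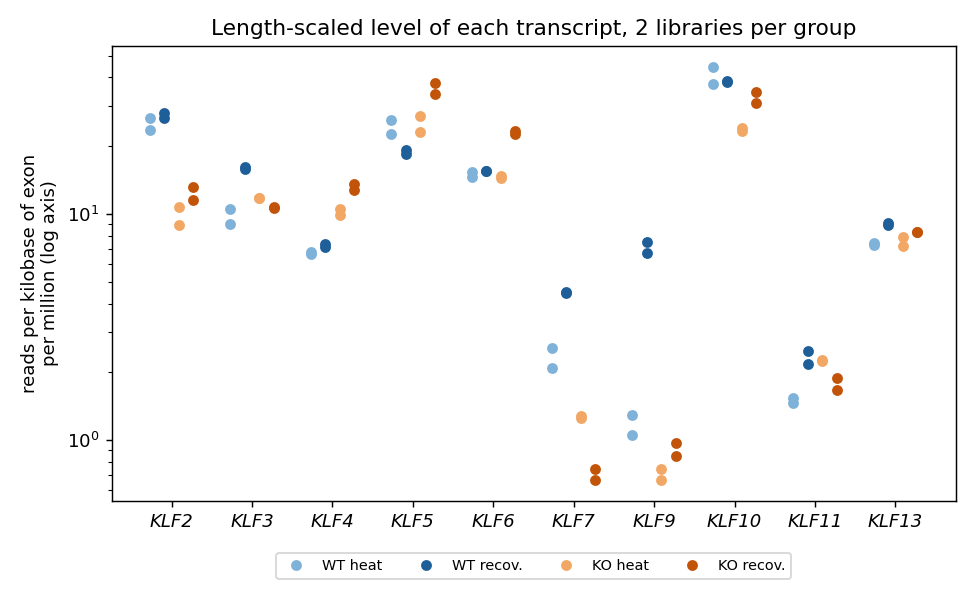
Level per length of the 10 Kruppel-like factors, in CPM per kilobase of exon on a log axis, with 1 point per library in each of the 4 groups. KLF10, KLF2 and KLF5 are highest in WT heat shock and KLF9, KLF11 and KLF7 lowest, and in WT recovery KLF9 rises to a mean of 7.08.

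The 10 genes summed to 578 and 549 CPM in WT heat shock, 640 and 647 in WT recovery, 484 and 475 in KO heat shock and 635 and 594 in KO recovery. The sum was thus higher in recovery than in heat shock in each cell line, and the WT and KO recovery groups did not overlap, with KO the lower. KLF9 made up 0.752% and 1.00% of the summed level per length in WT heat shock and 4.58% and 5.13% in WT recovery. In KO cells its share was 0.619% and 0.703% in heat shock and 0.673% and 0.639% in recovery.

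In WT recovery 5 of the 10 factors rose against WT heat shock (KLF3, KLF7, KLF9, KLF11 and KLF13) and 1 fell (KLF5). Of all genes tested, 24.8% rose and 26% fell at adjusted p under 0.05, and 50.8% changed in either direction. The median log2 change was 0.21 for the 10 factors and 0.01 for all genes tested. By protein group, those that rose were 3 of the 4 SIN3A-binding members, the CtBP-binding KLF3 and, of the 5 mostly activating members, KLF7. A difference between these groups was not tested.

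KLF9, a gene induced by thyroid hormone and glucocorticoids in many tissues, was at 5.43 and 6.67 CPM in WT heat shock and 34.5 and 38.7 in WT recovery. These levels rest on 106 and 130 reads in heat shock and 568 and 653 in recovery. Both recovery libraries were far above both heat shock libraries, by 6.06-fold (log2 change 2.60 ± 0.13, edgeR adjusted p = 6.36e-11). It ranked 20 by p-value among all genes tested. In the authors' deposited table the normalized log2 change of KLF9 was 2.81 in WT replicate 1 and 2.68 in replicate 2.

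KLF7, best known from developing neurons, rose from 18.8 and 23.1 CPM to 40.4 and 40.7 (log2 change 0.96 ± 0.11, adjusted p = 1.51e-06). KLF3 rose from 54.2 and 62.8 CPM to 94.3 and 96.1 (0.71 ± 0.09, 5.81e-06). KLF11, a TGF-beta-inducible relative of KLF10, rose from 6.65 and 7.03 CPM to 9.97 and 11.4 (0.64 ± 0.15, 0.00132). In each of these genes both recovery libraries lay above both heat shock libraries. The same held for KLF2, KLF4 and KLF6, which were not called. The nearest libraries of the 2 groups were 53.5 and 53.7 CPM for KLF2 and 91.4 and 91.8 CPM for KLF6. The KLF6 change turned slightly negative without the first WT heat shock or the first WT recovery library (-0.0128 and -0.0067). How many of all genes separate in this way was not counted. KLF13, an activator of the CCL5 gene in T cells, went from 54.0 and 52.9 CPM to 64.7 and 66.0 (0.29 ± 0.09, edgeR adjusted p = 0.014). That call was lost without the first (0.0537) or second (0.0664) WT heat shock library, without the second WT recovery library (0.0589), and without the filter on low counts (0.0724). With offsets for GC content and transcript length the KLF13 change was larger (0.70, 3.72e-07).

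KLF5 was the member that fell, from 97.5 and 84.4 CPM to 69.1 and 71.6 (log2 change -0.37 ± 0.10, edgeR adjusted p = 0.00385). Its groups did not overlap, and the call was lost with replicate 1 of WT heat shock left out (-0.27, adjusted p = 0.0724) or replicate 1 of WT recovery (-0.26, 0.0786). KLF2 was at 53.5 and 47.5 CPM in heat shock and 56.2 and 53.7 in recovery, KLF4 at 22.4 and 22.9 then 24.9 and 24.0, and KLF6 at 86.6 and 91.4 then 91.8 and 92.5. None of these 3 passed the test, with log2 changes of 0.12 ± 0.11, 0.11 ± 0.11 and 0.05 ± 0.09. With the same offsets, KLF2 (0.47, adjusted p = 0.000162) and KLF4 (0.44, 0.000705) passed as higher. KLF10 was at 179 and 151 CPM in heat shock and 154 and 153 in recovery, groups that overlapped (-0.10 ± 0.10, adjusted p = 0.424).

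**Figure D2:**
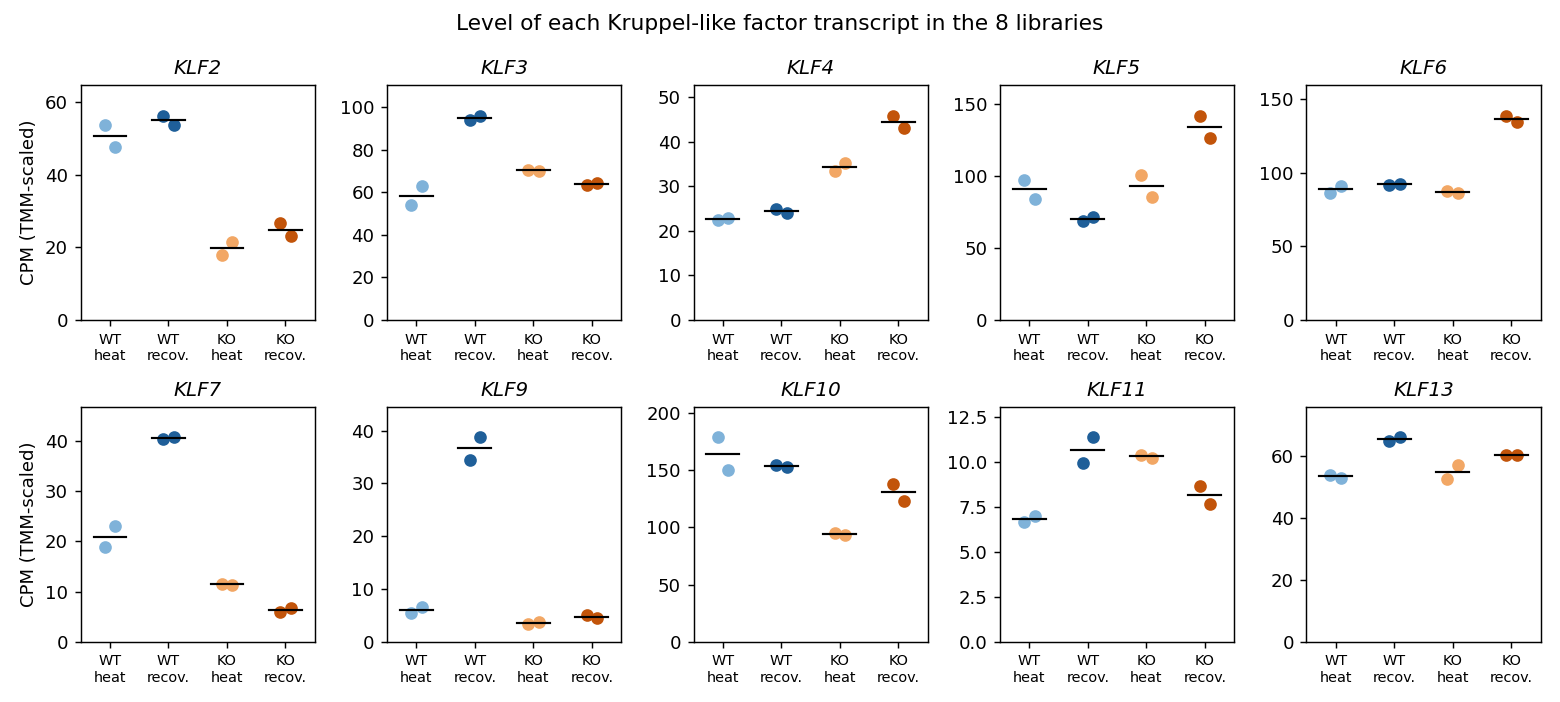
Level of each Kruppel-like factor in CPM on a linear axis from 0, with its own scale for each gene, 1 point per library in each of the 4 groups and a line at the group mean. KLF9 stands at 34.5 and 38.7 CPM in WT recovery and at 6.67 CPM or lower in the other 6 libraries.

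In KO recovery 5 of the 10 factors rose against KO heat shock (KLF2, KLF4, KLF5, KLF6 and KLF10) and 2 fell (KLF7 and KLF11). Of all genes tested, 20.6% rose and 21.1% fell, and 41.8% changed in either direction. The number of all genes called in this comparison, 7295, depended on single KO libraries: it was 2838 and 4555 without the first or second KO heat shock library and 3245 and 4654 without the first or second KO recovery library. The median log2 change of the 10 was 0.35, against -0.02 for all genes tested. By protein group, 4 of the 5 mostly activating members rose and the other, KLF7, fell. Of the 4 SIN3A-binding members KLF10 rose and KLF11 fell. A difference between these groups was not tested.

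KLF6 rose from 87.8 and 86.2 CPM to 139 and 135 (log2 change 0.65 ± 0.09, edgeR adjusted p = 1.31e-05). KLF5 rose from 101 and 85.7 CPM to 142 and 127 (0.53 ± 0.09, 0.000189). For both genes the recovery libraries were above the heat shock libraries without overlap. KLF10 went from 95.5 and 93.2 CPM to 138 and 123 (0.47 ± 0.10, edgeR adjusted p = 0.000729), and KLF4 from 33.4 and 35.3 CPM to 45.8 and 43.1 (0.37 ± 0.10, 0.00468). With the first KO heat shock library or the first KO recovery library left out both calls were lost, at adjusted p of 0.0931 and 0.0567 for KLF10 and 0.23 and 0.191 for KLF4. The KLF4 change was 0.23 (0.0423) with the GC and length offsets. KLF2 went from 18 and 21.5 CPM to 26.6 and 23.2 (0.33 ± 0.11, 0.0255). The KLF2 change was 0.11 (adjusted p = 0.711) without the first KO heat shock library, 0.13 (0.66) without the first KO recovery library and 0.03 (0.855) with offsets for GC content and length, and DESeq2 gave an adjusted p of 0.0997. It was 0.56 without the second KO heat shock library and 0.57 without the second KO recovery library.

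KLF7 fell from 11.6 and 11.3 CPM to 6.03 and 6.74 (log2 change -0.84 ± 0.13, edgeR adjusted p = 5.53e-05), with both recovery libraries below both heat shock libraries. KLF11 went from 10.4 and 10.3 CPM to 8.66 and 7.65 (-0.35 ± 0.13, 0.0422). The KLF11 call was lost when any 1 of the 4 KO libraries was left out, at adjusted p of 0.17 to 0.389. It was also lost without the filter (0.0835), with DESeq2 (0.257) and with offsets for GC content and length (-0.23, 0.169). KLF9, the gene with the largest change of the 10 in WT cells, was at 3.45 and 3.84 CPM in KO heat shock (92 and 135 reads) and 5.04 and 4.42 in KO recovery (113 and 116 reads). Its groups did not overlap, and the log2 change of 0.37 ± 0.16 did not pass (edgeR adjusted p = 0.0739). It passed without the first (0.0401) or second (0.041) WT heat shock library, without the first WT recovery library (0.0479), and with offsets for GC content and length (0.51, 0.0144). KLF3 was at 70.5 and 70.2 CPM then 63.5 and 64.4 (-0.14 ± 0.09, adjusted p = 0.243), a change that was 0.22 (0.0275) with those offsets. KLF13 was at 52.5 and 57.2 CPM in heat shock and 60.2 in each recovery library (0.14 ± 0.09, adjusted p = 0.248).

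**Figure D3:**
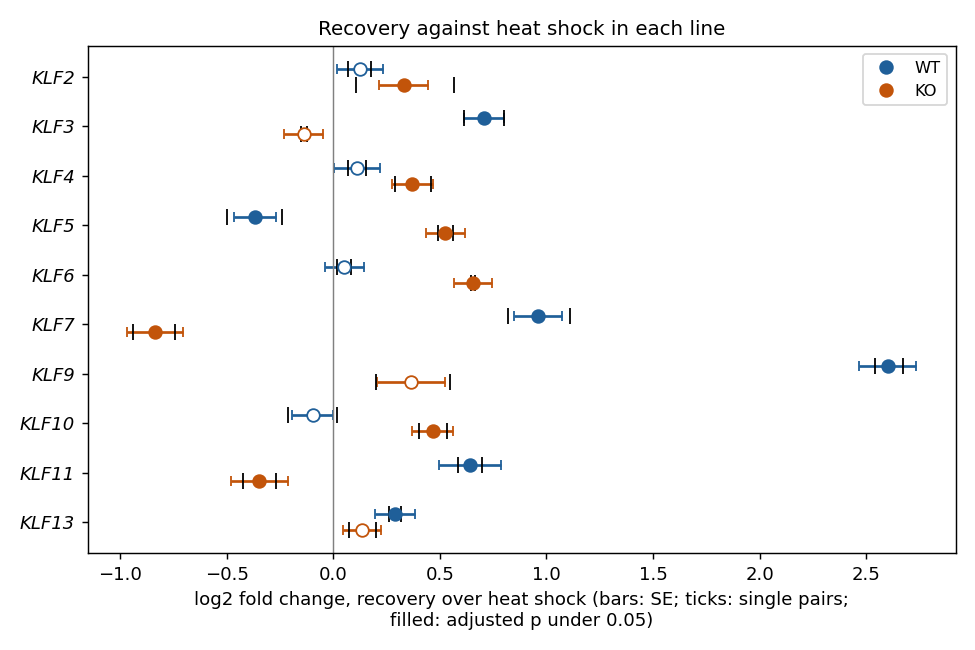
Log2 change of each Kruppel-like factor in recovery against heat shock, in WT and in KO cells, with bars of 1 standard error, ticks for the single matched pairs and filled markers at adjusted p under 0.05. KLF9 is at 2.60 in WT and 0.37 in KO. KLF3, KLF5, KLF7, KLF10 and KLF11 are on opposite sides of 0 in the 2 cell lines.

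The recovery responses of 7 factors differed between the cell lines in the interaction test, which asks directly whether the KO change minus the WT change is 0. The KO response was higher for KLF5, KLF6 and KLF10 and lower for KLF3, KLF7, KLF9 and KLF11. Over all genes tested the response was higher in KO for 28.5% and lower for 27.8%, with 56.3% called in either direction. The median difference was 0.03 for the 10 factors and -0.03 for all genes.

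KLF9 had the lowest difference, -2.24 ± 0.21 on the log2 scale (edgeR adjusted p = 7.65e-08), and stayed between -2.40 and -2.04 with any 1 library left out. KLF7 followed at -1.80 ± 0.17 (9.97e-08), having risen in WT and fallen in KO cells. KLF11 (-0.99 ± 0.20, 0.000319) had the same directions, with the library-dependent KO call given above. KLF3 was at -0.84 ± 0.13 (2.33e-05), from a rise in WT and no call in KO. With offsets for GC content and length the KLF3 difference was -0.34 (0.0114). KLF5 showed the reverse of KLF7, a fall in WT and a rise in KO (0.89 ± 0.13, 1.71e-05). KLF6 (0.60 ± 0.13, 0.000529) and KLF10 (0.56 ± 0.14, 0.00167) rose in KO cells and were not called in WT.

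The differences of KLF2 (0.21 ± 0.16, edgeR adjusted p = 0.277), KLF4 (0.26 ± 0.15, 0.136) and KLF13 (-0.16 ± 0.13, 0.325) did not pass. With the GC and length offsets the KLF2 difference was -0.45 (0.00729), the KLF4 difference -0.22 (0.17) and the KLF13 difference -0.69 (2.76e-05). The longest KLF2 transcript has 65.16% G and C and that of KLF13 57.61%, against a median of 49.3% over coding genes. The longest KLF4 transcript has 54.96% and that of KLF3 41.53%. Those of KLF5, KLF6, KLF7, KLF9, KLF10 and KLF11, at 43.82% to 47.23%, are also below the median. With the offsets these 6 genes kept their calls for the difference, and so did KLF3. The part of GC content in the shifts of single genes was not tested.

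**Figure D4:**
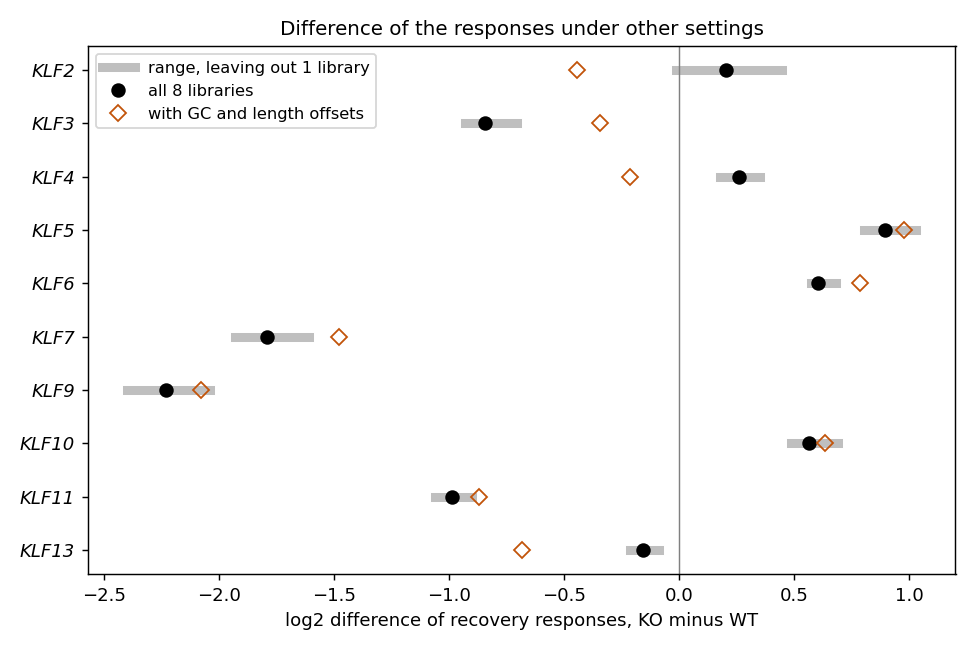
Difference of the recovery responses (KO minus WT, log2) for each Kruppel-like factor with all 8 libraries (black points), over the fits that leave out 1 library (grey bars from lowest to highest) and with GC and length offsets (open diamonds). KLF3, KLF7, KLF9, KLF11 and KLF13 stay below 0 and KLF5, KLF6 and KLF10 above 0 in all of these. KLF13 was not called with all 8 libraries. KLF2 is 0.21 as reported and -0.45 with GC and length offsets.

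At heat shock, before any recovery, 3 factors were higher in KO than in WT cells (KLF3, KLF4 and KLF11) and 4 were lower (KLF2, KLF7, KLF9 and KLF10). Of all genes tested 27.4% were higher and 28.2% lower, 55.6% together, and the median log2 difference was 0.00 for the 10 factors and -0.03 for all genes. These comparisons use the heat shock libraries that also enter the recovery comparisons.

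KLF2 differed by -1.35 ± 0.11 on the log2 scale (edgeR adjusted p = 2.36e-07), from a mean ± SD of 50.5 ± 4.3 CPM in WT to 19.7 ± 2.5 in KO. KLF7 differed by -0.87 ± 0.12 (1.97e-05), KLF10 by -0.80 ± 0.09 (6.91e-06) and KLF9 by -0.72 ± 0.16 (0.00139), and for each gene both KO libraries lay below both WT libraries. KLF4 was higher in KO by 0.60 ± 0.09 (6.24e-05) and KLF11 by 0.59 ± 0.13 (0.00149), again without overlap. KLF3 was higher by 0.27 ± 0.09 (edgeR adjusted p = 0.0164). This KLF3 call was lost without either KO heat shock library (0.0821 and 0.0766), the first WT heat shock library (0.209) or either WT recovery library (0.0578 and 0.057), and with upper-quartile scaling (0.0582). With GC and length offsets the KLF3 value was -0.13 (0.115). KLF5 (0.04 ± 0.10), KLF6 (-0.03 ± 0.08) and KLF13 (0.04 ± 0.08) overlapped between the cell lines and did not pass. With the GC and length offsets KLF6 (-0.17, adjusted p = 0.0321) and KLF13 (0.30, 0.0033) passed.

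At recovery 3 factors were higher in KO (KLF4, KLF5 and KLF6) and 6 were lower (KLF2, KLF3, KLF7, KLF9, KLF10 and KLF11), against 31.8% higher and 31.3% lower, 63.1% together, of all genes tested. The median log2 difference was -0.31 for the 10 factors and -0.01 for all genes. KLF9 differed by -2.96 ± 0.14 (edgeR adjusted p = 5.4e-10), a level 7.76-fold lower in KO. KLF7 differed by -2.66 ± 0.12 (5.82e-10), KLF2 by -1.14 ± 0.11 (6.03e-07) and KLF3 by -0.57 ± 0.09 (4.28e-05). KLF5 was higher in KO by 0.93 ± 0.10 (2.35e-06), KLF4 by 0.86 ± 0.09 (1.59e-06) and KLF6 by 0.57 ± 0.08 (1.71e-05). The KO and WT recovery libraries did not overlap for any of the 10 factors, KLF13 included, which was not called. The share of all genes without overlap was not counted, and 63.1% of all genes tested were called in this comparison. The absence of overlap is therefore not a result about the family. With the GC and length offsets the KLF4 difference was 0.57 (1.6e-05).

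KLF10 (-0.23 ± 0.09, edgeR adjusted p = 0.0436) and KLF11 (-0.39 ± 0.13, 0.0185) had smaller differences at recovery. The KLF10 call was lost without either KO heat shock library (0.0641 and 0.0638), the second KO recovery library (-0.14, 0.313) or either WT recovery library (0.137 and 0.107), and without the filter (-0.14, 0.281), and the value was -0.40 (0.0015) with upper-quartile scaling. The KLF11 call was lost without the second KO recovery library (-0.29, 0.134) or the second WT recovery library (0.159), without the filter (0.113) and with DESeq2 (0.0576). KLF13 was at -0.12 ± 0.08 (0.216), and passed with upper-quartile scaling (-0.29, 0.00687), with a minimum mean count of 50 (-0.21, 0.0266) and with the GC and length offsets (-0.38, 0.000348). KLF2, KLF7 and KLF9 were called lower in KO both at heat shock and at recovery and KLF4 higher at both, whereas KLF5 and KLF6 were called only at recovery, where the interaction test also called them.

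**Figure D5:**
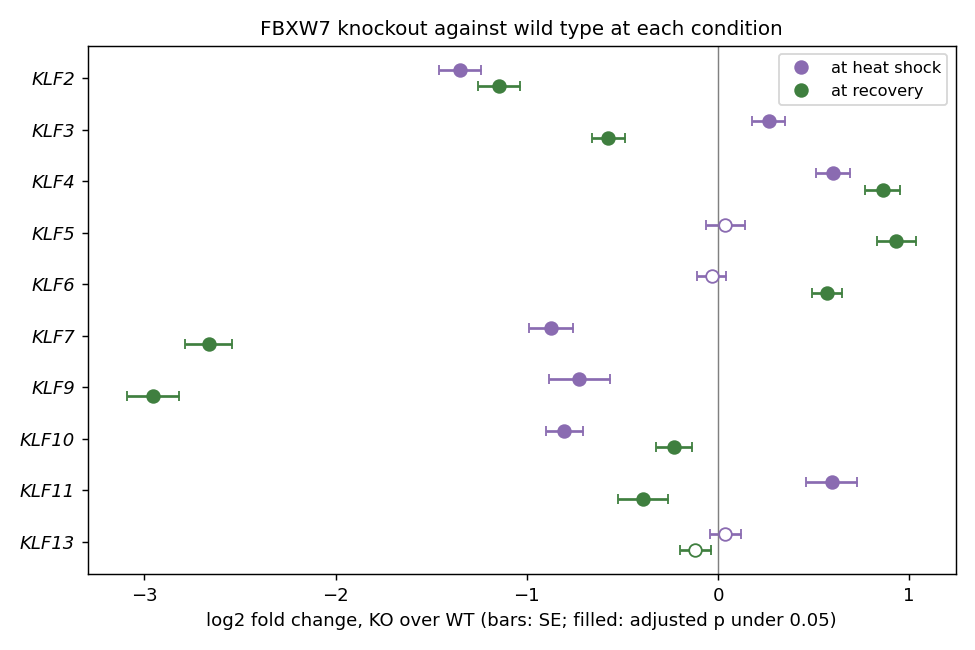
Log2 difference of each Kruppel-like factor between KO and WT cells at heat shock and at recovery, with bars of 1 standard error and filled markers at adjusted p under 0.05. KLF2 is below -1 at both times, KLF9 goes from -0.72 to -2.96, and KLF5 from 0.04 to 0.93.

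The counts called in each gene list below stand against the same shares of all genes tested as above: 24.8% higher and 26% lower in WT recovery, 20.6% and 21.1% in KO recovery, and 28.5% and 27.8% for the difference. No list was tested as a set, and several of the counts are near these shares.

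The other family members were given as a list of 7 genes, of which 5 were tested. KLF1 and KLF17 had 1 and 2 reads over the 8 libraries. In WT recovery 2 of the 5 rose and 0 fell. KLF15, a glucocorticoid-responsive member, was at 0.512 and 0.564 CPM in WT heat shock, 4.31 and 3.68 in WT recovery, 0.449 and 0.426 in KO heat shock and 0.223 and 0.609 in KO recovery. Only its WT recovery libraries stood above 1 CPM, on 71 and 62 reads, against 5 to 16 reads in each of the other libraries. KLF9 was likewise highest in WT recovery, but above 1 CPM in every library. The WT log2 change of KLF15 was 2.88 ± 0.36 (edgeR adjusted p = 3.36e-06), the KO change -0.03 (0.968) and the difference -2.91 ± 0.62 (0.00056). KLF12, a CtBP-binding relative of KLF3, rose in WT (0.49, 0.00378) and fell in KO cells (-0.46, 0.00273), with a difference of -0.95 (0.00011). KLF16, a SIN3A-binding member, was higher in KO at heat shock (0.44, 0.00756) and recovery (0.71, 0.00024). In KO recovery 0 of the 5 rose and 1 fell, and 3 of the 5 differed between the responses, all lower in KO.

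The SP factors, the closest relatives of the family, most of which bind GC boxes, had 7 of 9 genes tested. In WT recovery 0 rose and 1 fell, and in KO recovery 2 rose and 3 fell. SP2 fell in WT (-1.09, edgeR adjusted p = 8.1e-07) and rose in KO cells (0.50, 0.00174). All 11 cofactors were tested: 1 rose and 4 fell in WT recovery, 5 rose and 2 fell in KO recovery, and the difference was higher in KO for 7 and lower for 3, where 56.3% of all genes were called in either direction. The median log2 change of the cofactors was -0.19 in WT and 0.12 in KO recovery, against 0.01 and -0.02 for all genes. CREBBP, an acetyltransferase that binds activating members, fell in WT (-1.66, 1.94e-09) and rose in KO (0.41, 0.00481). EP300, its close relative, fell in WT (-1.02, 1.71e-07) with -0.13 (0.29) in KO. SIN3A, the corepressor bound by KLF9, KLF10, KLF11 and KLF13, was lower in KO at heat shock (-0.59, 2.44e-05) and at recovery (-0.74, 1.97e-06).

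Of 12 regulators and ubiquitin ligases of KLF genes and proteins, 5 rose and 3 fell in WT recovery and 1 rose and 4 fell in KO recovery. MEF2C, of a factor family that activates KLF2 and KLF4 downstream of the kinase MAPK7, rose in WT (1.05, edgeR adjusted p = 2.23e-06) and fell in KO cells (-0.97, 4.27e-05). MAPK7 itself fell in WT (-0.53, 0.00337), where MEF2A (0.04, 0.766) and MEF2D (-0.09, 0.423) were not called. In KO cells MEF2A fell (-0.45, 0.000535), MEF2D rose (0.27, 0.0195) and MAPK7 was not called (0.21, 0.192). SMURF2, a ligase, was lower in KO at heat shock (-1.09, 9.92e-08) and recovery (-1.16, 2.8e-08). Of 12 genes of the TGF-beta pathway, which induces KLF10 and KLF11, 4 rose and 3 fell in WT and 3 rose and 4 fell in KO recovery. SKIL, a repressor of SMAD-driven transcription, rose in WT (1.38, 1.6e-08) and fell in KO cells (-1.02, 2.06e-06). SKI, from the same list, went the other way: it fell in WT (-0.68, 1.31e-05) with 0.08 (0.528) in KO.

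Of 19 published KLF target genes 16 were tested, of which 6 rose and 7 fell in WT recovery and 4 rose and 1 fell in KO recovery. Shares of all genes tested were 24.8% and 26% in WT and 20.6% and 21.1% in KO recovery, so the share of targets that rose in KO cells was near that of all genes. The median log2 change of these targets was -0.16 in WT and 0.15 in KO cells, and the difference was higher in KO for 8 and lower for 4. CDKN1B, a cell cycle inhibitor, rose in WT (0.85, edgeR adjusted p = 3.69e-06) and fell in KO cells (-0.48, 0.000935). CCND1, the cyclin D1 gene activated by KLF5, fell in WT (-0.80, 3.9e-06) and was not called in KO cells (0.10, 0.477). CCNE1, the cyclin E gene repressed by KLF4, had a difference of 0.99 (7.7e-06). FGFBP1, a target of KLF5, was higher in KO at heat shock (2.21, 2.6e-08) and at recovery (2.87, 1.57e-09).

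Across the 8 libraries the range of log2 CPM (prior count 2) was 3.46 for KLF9, 2.74 for KLF7, 1.64 for KLF2, 1.04 for KLF5, 1.03 for KLF4, 0.94 for KLF10, 0.83 for KLF3, 0.77 for KLF11, 0.69 for KLF6 and 0.33 for KLF13. Likeness to other genes was measured as the root mean squared difference of centred log2 CPM over the 8 libraries, among 11718 genes with a mean count of at least 50. The genes nearest to KLF9 were ELF3 (0.248) and ARRDC4 (0.269), and those nearest to KLF7 were PDCD4 (0.164) and TFAP2C (0.178). KLF2 was nearest to PSD4 (0.0998) and CYHR1 (0.104), KLF3 to TRMT1L (0.049) and CSNK1G3 (0.0579), and KLF13 to STAMBPL1 (0.051) and ISCU (0.0608). KLF4 was nearest to PLCXD2 (0.0786) and AOC2 (0.088), KLF5 to POLR3D (0.0691) and SIRT7 (0.0707), KLF6 to CMC2 (0.083) and SLC20A1 (0.0874), KLF10 to GMPR2 (0.0558), and KLF11 to ITGA6 (0.0702) and TMEM123 (0.0713). A gene with a wide range has fewer close matches on this measure, and the 8 libraries fall into 4 groups, so these are descriptions without a test.

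By Ensembl gene and GENCODE v29 (GRCh38) position, the members are KLF2 (ENSG00000127528, chr19:16324817-16327874), KLF3 (ENSG00000109787, chr4:38664196-38701042), KLF4 (ENSG00000136826, chr9:107484852-107490482), KLF5 (ENSG00000102554, chr13:73054976-73077542) and KLF6 (ENSG00000067082, chr10:3775996-3785281). The others are KLF7 (ENSG00000118263, chr2:207074137-207167267), KLF9 (ENSG00000119138, chr9:70384597-70414624), KLF11 (ENSG00000172059, chr2:10042849-10054836), KLF13 (ENSG00000169926, chr15:31326855-31435665) and KLF10 (ENSG00000155090) on chromosome 8. KLF3 shares exon sequence with KLF3-AS1 on the other strand, which had 173 reads over the 8 libraries against 12921 for KLF3. KLF11 has an antisense gene that was not analysed here, so its reads may include antisense reads if strand was not used in counting.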

How the data were processed

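The authors deposited 4 tables, 1 per cell line and replicate, with read counts per gene for a recovery and a heat shock library. Per the file headers they also hold log2 fold changes, a z score, p-values and q-values that the authors computed for each single pair. The counts are whole numbers and were not normalized. CASAVA, TopHat and build hg19 are listed in the submitters' processing notes. For the counting program, its strand setting and the RNA selection of each library (poly-A or ribosomal depletion), no source used here gives an answer. The order of the count columns was read from the comparison names and checked against the authors' log2 fold change. If it were wrong, every recovery change would flip sign.

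Counts were tested with edgeR 4.0.16 (filterByExpr, TMM, quasi-likelihood F test) in R 4.3.3 over 17471 genes with all 8 libraries, Benjamini-Hochberg adjustment and a threshold of 0.05. Recovery was compared within matched pairs, as the series design states (2 residual degrees of freedom), and KO with WT without a block (4). Libraries with the same number deviated from their group means with a correlation across genes of -0.0156 (WT) and -0.0138 (KO). Replicates correlated at 0.9908 to 0.9947 and differed by more than sampling noise. Whether they came from separate cultures is not stated beyond the design calling them biological, so p-values measure the spread between these libraries. CPM were TMM-scaled. GC content, length and exons came from GENCODE v29 (GRCh38), which matched 88.8% of the genes and gave values for 95.4% of those tested. The scripts were tested on simulated data. Members and lists were chosen with earlier results of these data known. All members were named whatever their values, and from each list up to 3 genes with the lowest p in a comparison, with 2 nearest genes per member. Some genes that this rule names are not reported here. Alternatives were other scalings, filters, DESeq2 1.42.0, blocks, GC and length offsets, the 4 libraries compared alone, and leaving out each library.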

Additional observations from a re-analysis of the deposited data

Results flagged for a closer look

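For 7 of the 10 Kruppel-like factors the change in recovery differed between KO and WT cells in the test of the difference itself (edgeR's interaction term), against 56.3% of all genes tested. The log2 difference, KO minus WT, was -2.235 for KLF9 (adjusted p = 7.65e-08), -1.795 for KLF7 (9.97e-08), -0.9869 for KLF11 (0.000319) and -0.8432 for KLF3 (2.33e-05). It was 0.8937 for KLF5 (1.71e-05), 0.6035 for KLF6 (0.000529) and 0.5636 for KLF10 (0.00167). In each matched pair KLF3, KLF7 and KLF11 rose in WT and fell in KO cells, and KLF5 did the reverse. The KO change of KLF3 was not called, and with offsets for GC content and length it was a called rise (0.22, edgeR adjusted p = 0.0275). The KLF11 call in KO was lost with any 1 KO library left out.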

How the results depend on the processing

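Of 840 values recomputed over 50 gene and comparison pairs of the 10 Kruppel-like factors, 764 kept their sign and their side of the threshold, 39 lost and 19 gained a call, and 18 changed sign, 6 of them where a call was made in at least 1 of the fits compared. In 32 pairs no setting changed the call. Those 6 came with offsets for GC content and transcript length: KLF3 in KO recovery 0.22 (adjusted p 0.0275, or 0.0154 with no replicate block), KLF2 in the difference of responses -0.445 (0.00729, or 0.00579) and KLF3 between KO and WT at heat shock -0.128 (0.115, or 0.125 with the replicate block). The other 12 sign changes were of values called in neither fit. They were the KLF4 difference (-0.215) and KLF5 between KO and WT at heat shock (-0.0485) with the offsets, KLF5 (-0.0223) and KLF13 (-0.0227) there with upper-quartile scaling, and 6 values with 1 library left out. Those 6 lay between -0.0861 and -0.0067 and concerned KLF2 in the difference, KLF6 in WT recovery and KLF5 and KLF13 at heat shock. The cause was not tested. Over all genes tested, the count called in KO recovery was 7295, against 4789 with DESeq2 and 2838 to 8244 with 1 library left out, 2838 to 4654 where it was a KO library. The 2 members called lower there became 1 with no filter, with the offsets (also with no replicate block), with DESeq2 and with any 1 KO library left out, and stayed 2 with any 1 WT library left out. The 5 members called higher there were 2 to 6 with 1 library left out, and the 1 called lower in WT recovery was 0 to 1.

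The replicate block alone changed no call of a member: KLF9 in WT recovery was 2.60 without it (adjusted p 8.57e-09). With no replicate block 9045 genes were called in WT recovery, 7399 in KO recovery and 9999 for the difference. With the replicate block 9656 were called between KO and WT at heat shock and 11013 at recovery. Upper-quartile scaling moved the median log2 change of all genes to 0.103 in WT recovery, -0.136 for the difference and -0.177 for KO against WT at recovery. It gave 5303 higher and 3686 lower genes in WT recovery (4334 and 4540 as reported) and 4212 and 6852 for KO against WT at recovery (5562 and 5464). KLF9 and KLF11, with the lowest counts, are the least precise of the members.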

Other observations

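The authors tested each matched pair of libraries on its own, without replicates. By the authors' deposited table, 7 members had a q-value under 0.05 and a rise in both WT pairs. Among them were KLF2 (normalized log2 change 0.207 and 0.320) and KLF6 (0.222 and 0.160), which did not pass in the fit over replicates. The authors' scaling differs too: TMM-scaled CPM gave 0.0705 and 0.178 for KLF2 and 0.0846 and 0.0177 for KLF6 in the same pairs. In both KO pairs 4 members rose and 3 fell in the authors' deposited table, KLF3 among the latter (-0.315 and -0.207). TMM-scaled CPM gave -0.151 and -0.124 for these KLF3 pairs. The part of the scaling in the differing calls was not tested. The KLF5 fall in WT cells, called over replicates, was not among the falls called there in both WT pairs, of which there were 0. How many of all genes met the same rule in both pairs was not counted, so these counts are not a result about the family.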
